A study of Mus musculus with 18 samples.

Results

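The expression of 10 genes of the MHC class I pathway was measured by RNA-Seq in mouse colonic epithelium with and without dysplasia, at 2 levels of dietary folic acid (FA). The genes were taken by name from the count tables and were H2-K1, H2-D1, H2-T23, H2-T-ps, B2m, Tap1, Tap2, Tapbp, Nlrc5 and Psmb8, which is 10 of the 55453 gene names counted. All 10 were among the 20787 genes that passed the filter on low counts. Every mouse was a female of the outbred Swiss Webster stock that had received azoxymethane (AOM), a colon carcinogen, at 7 weeks of age and then, from 9 weeks, 4 cycles of 2% dextran sulfate sodium (DSS), a sugar polymer that injures the colonic lining. Chow held the basal 2 mg/kg FA until 11 weeks of age, and 8 or 0 mg/kg for the 16 weeks after it, until tissue was taken at 27 weeks. Polypoid dysplasia (P) and non-dysplastic epithelium (ND) were isolated from formalin-fixed colons by laser microdissection. The groups were 8P (dysplasia, 8 mg/kg FA, n = 5), 0P (dysplasia, 0 mg/kg FA, n = 4), 8ND (non-dysplastic epithelium, 8 mg/kg FA, n = 5) and 0ND (non-dysplastic epithelium, 0 mg/kg FA, n = 4). No group lacked AOM and DSS, so each value describes tissue of injured, carcinogen-treated colons. The sources used here do not say whether same-numbered P and ND libraries came from 1 mouse.

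MHC class I molecules carry short peptides from inside the cell to its surface, where CD8+ T cells read them. The proteasome cuts proteins into peptides, the TAP transporter moves the peptides into the endoplasmic reticulum, and a loading complex holds an empty class I heavy chain with its light chain, beta-2 microglobulin, until a peptide fits. Interferon raises most of these genes at once, through interferon-response elements and through Nlrc5, a transactivator that acts on a shared promoter module of class I genes. Loss of parts of this pathway is one known way in which tumor cells escape T cells, and natural killer cells respond to cells that lack class I.

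The promoters of the class I genes and of B2m are shown because they carry all or only some motifs of the module through which the pathway is switched on together, and because they show how alike the genes that could share reads are. Each line holds 140 bases, 5′ to 3′ on the strand of the gene, placed around the first Y box, from the RefSeq promoter table on GRCm38.p6. Capitals mark every match to 4 motifs on either strand, namely TTTCNNTT (an interferon-response element core), the kappa B site, read by NF-kappa B, TGACG (the core of the X2 box, read by CREB and ATF1) and CCAAT (the Y box, read by NF-Y).
H2-K1 (chr17:34000329-34000468, minus strand): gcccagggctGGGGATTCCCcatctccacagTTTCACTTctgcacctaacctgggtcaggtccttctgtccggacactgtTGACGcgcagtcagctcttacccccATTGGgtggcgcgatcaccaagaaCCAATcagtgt
H2-D1 (chr17:35262913-35263052, plus strand): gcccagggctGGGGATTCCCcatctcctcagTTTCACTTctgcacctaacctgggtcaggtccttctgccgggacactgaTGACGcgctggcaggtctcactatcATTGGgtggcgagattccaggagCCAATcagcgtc
B2m (chr2:122147529-122147668, plus strand): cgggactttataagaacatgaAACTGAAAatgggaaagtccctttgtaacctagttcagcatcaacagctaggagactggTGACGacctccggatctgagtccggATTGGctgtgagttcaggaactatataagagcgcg
H2-T23 (chr17:36032719-36032858, minus strand): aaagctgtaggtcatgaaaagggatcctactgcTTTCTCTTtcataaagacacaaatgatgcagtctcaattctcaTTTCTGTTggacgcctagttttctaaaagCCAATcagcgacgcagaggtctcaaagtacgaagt
H2-T-ps (chr17:36111708-36111847, minus strand): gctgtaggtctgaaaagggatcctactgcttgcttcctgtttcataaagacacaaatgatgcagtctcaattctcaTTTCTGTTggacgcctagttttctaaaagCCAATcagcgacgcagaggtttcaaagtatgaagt
In H2-K1, H2-D1 and B2m the X2 core started 25 bases before the Y box, and H2-K1 and H2-D1 were 87.3% identical over the window. Their kappa B match started 95 bases before the Y box and their interferon-response match 74 bases before it. H2-T23 and H2-T-ps were 92.4% identical to each other, held the Y box and an interferon-response match 29 bases before it, and had no TGACG in the window. H2-T23 had a further interferon-response match, 72 bases before the Y box, that H2-T-ps lacked. Of 27025 promoters in the table, 24.2% held TTTCNNTT, 1.66% the kappa B letters, 21.02% TGACG and 37.9% CCAAT, and 1.67% held the interferon-response, X2 and Y letters together. A promoter was found for 8 of the 10 genes. That of Tap1 held TGACG and CCAAT, that of Tapbp held only CCAAT, and that of Psmb8 held none of the 4 motifs. No promoter was listed for Tap2 and Nlrc5.

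On mm10, 8 of the genes lie on chromosome 17. Tapbp spans 33915899 to 33929292, H2-K1 spans 33996017 to 34000347, Tap1 spans 34187553 to 34197225, Psmb8 spans 34197721 to 34201454 and Tap2 spans 34203527 to 34216321, so that Tap1, Psmb8 and Tap2 are neighbors. H2-D1 spans 35262730 to 35267499, H2-T23 spans 36029773 to 36032855, and H2-T-ps, which GENCODE lists as an unprocessed pseudogene, spans 36109234 to 36111658. B2m spans 122147686 to 122153083 on chromosome 2 and Nlrc5 spans 94434356 to 94527272 on chromosome 8. The reads were counted at whole genes, so no value here belongs to 1 exon or untranslated region.

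Class I genes are close copies of each other, which limits how well reads can be assigned. Of all stretches of 50 bases in its annotated transcripts, H2-T-ps shared 29.4% with other genes, among them 17.98% with H2-T23 and 10.7% with H2-Q1. The share was 14.5% for H2-T23, 12.8% for H2-D1, of which 5.44% of all stretches were shared with H2-K1, and 9.63% for H2-K1. B2m shared no such stretch and Nlrc5 only 0.338%. Tapbp shared 23.2%, mostly with the overlapping antisense gene Gm19412, and overlaps Zbtb22 on the same strand over 3422 bases. H2-T-ps overlaps Gm7030 on the same strand over 1940 bases, and Gm7030 had 11 counts over all libraries. How many H2-T-ps reads this overlap affected was not tested. Tap1 shared 3.33%, Tap2 11.6% and Psmb8 11.9%. The strand setting of the counting is not given in the sources used here. Reads of the antisense pairs H2-T23 and A930015D03Rik, H2-T-ps and BC023719, and Tap1 and Psmb9 at their overlap therefore cannot be told apart. B2m overlaps Patl2 on the other strand over 5398 bases, but shared no 50-base stretch of transcript with it. Patl2 had 9 counts over all libraries. The reference carries the alleles of C57BL/6J, class I heavy chains are among the most polymorphic genes known, and how well reads of other alleles in these outbred mice aligned was not tested.

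The 10 genes took 2307 to 12064 counts per library, or 0.0458 to 0.0881% of the 3500947 to 17048524 counts on genes. Levels are given as CPM, counts relative to library size, with library sizes scaled by TMM. Per kilobase of exon (CPM/kb, mean over 18 libraries), B2m stood highest at 227, before H2-D1 at 74.0, H2-K1 at 28.2 and Tapbp at 27.9. The lower group held Psmb8 at 5.79, H2-T23 at 5.55, Tap2 at 4.71, Tap1 at 3.06, Nlrc5 at 2.07 and H2-T-ps at 1.77 CPM/kb. The ranges over libraries overlapped between neighbors in this order, also for B2m (106 to 339 CPM/kb) and H2-D1 (26.8 to 115 CPM/kb), except between Tapbp (21.5 to 35.7 CPM/kb) and Psmb8 (2.74 to 12.8 CPM/kb), which did not overlap. All 12 epithelial markers checked, among them Epcam, Cdh1 and Krt8, were found in each group, and their summed level was 4124 to 6228 CPM of total counts in 8P, 4363 to 6728 CPM in 0P, 11943 to 16918 CPM in 8ND and 8505 to 10801 CPM in 0ND. Markers of T, B, myeloid, stromal and muscle cells were also present in every group, and in bulk samples fewer cells of a type and less RNA per cell cannot be told apart.

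**Figure D1:**
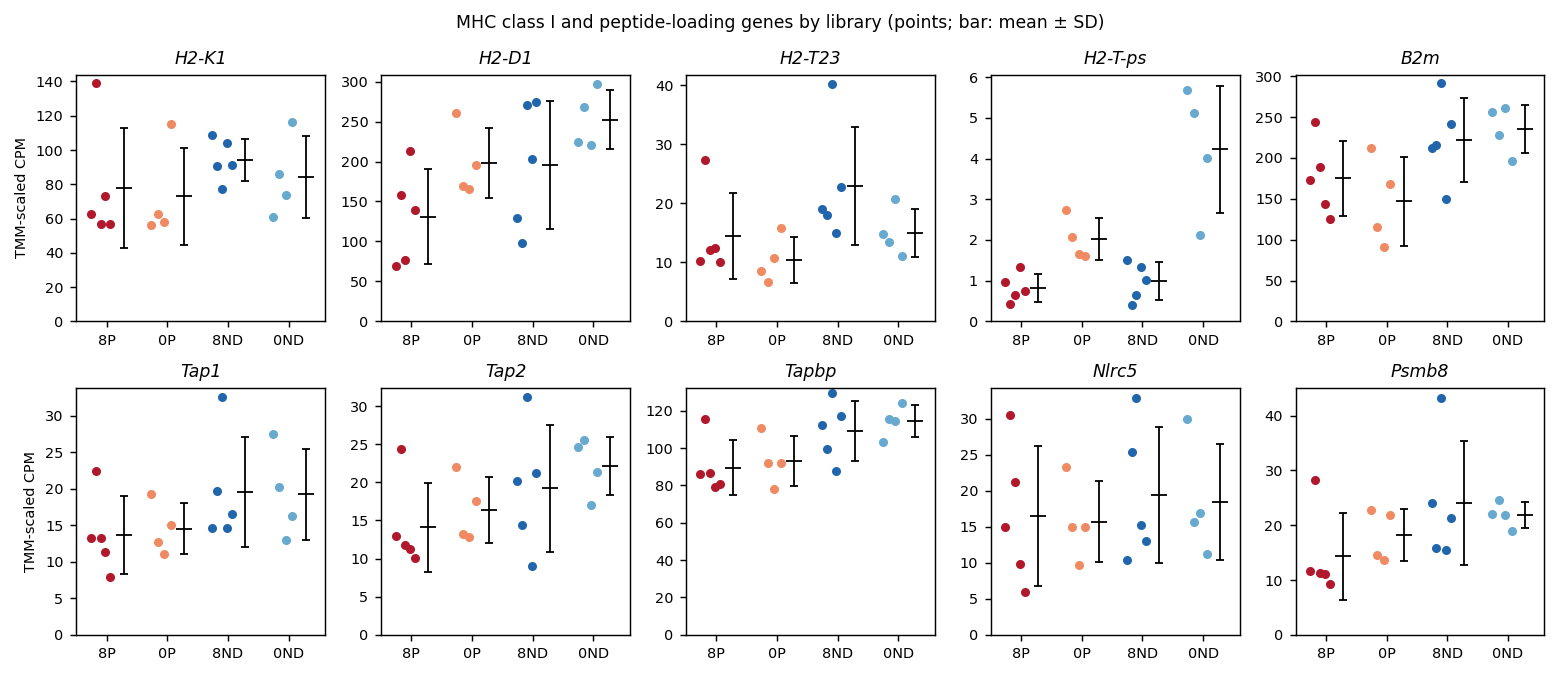
TMM-scaled CPM (y axis, from 0) of the 10 genes in each library of 8P, 0P, 8ND and 0ND (x axis), with 1 point per library and a bar for the mean ± SD beside the points. H2-T-ps lay at 0.396 to 1.52 CPM in the libraries on 8 mg/kg FA and at 1.62 to 5.67 CPM in those on 0 mg/kg FA, while the other genes overlapped between the groups.

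The first comparison asked what the supplemented chow changed in epithelium without dysplasia (8ND vs 0ND). Of the 10 genes, 1 passed an adjusted p of 0.05 in edgeR's quasi-likelihood test, the pseudogene H2-T-ps, against 0.0481% of all 20787 genes tested (0.0289% higher, 0.0192% lower), and it was the 1 gene of the 10 with an unadjusted p under 0.05, where 9.91% of all genes had one. H2-T-ps measured 1.52, 0.396, 0.644, 1.33 and 1.03 CPM in 8ND, against 5.67, 5.11, 2.13 and 4.01 CPM in 0ND. Every 8ND library lay below every 0ND library, a separation that 3.94% of all genes showed. The log2 fold change was -2.18 ± 0.39 (SE), with an adjusted p of 0.0433. The values rest on few reads, 5 to 11 counts per library in 8ND and 18 to 89 in 0ND. Marker sums also differed between these groups, with fibroblast markers at 1285 to 1466 CPM of total counts in 8ND, against 1067 to 1140.3 CPM in 0ND, and the epithelial sums above 1.49-fold higher in 8ND, both without overlap (exact permutation p = 0.0159, the smallest possible, adjusted p 0.104). On TMM-scaled CPM, the scale used for H2-T-ps, the exact permutation p was 0.0635 for the fibroblast sum and 0.0159 for the epithelial sum. Single markers went both ways. Only 3 of 12 epithelial markers had a log2 fold change above 0 (median -0.11), and 5 of 10 fibroblast markers did (median 0.08). The part of these sums in the H2-T-ps difference was not tested. H2-T22 and H2-T3, genes of the same region, varied widely between libraries of 1 group, and the part of allele differences between outbred mice in the H2-T-ps values was not tested.

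The H2-T-ps call did not hold under every change of the samples. It was kept without 8ND 3 and without 0ND 3, and it was lost without each of 8ND 1, 8ND 2, 8ND 4, 8ND 5, 0ND 1, 0ND 2 and 0ND 4, with log2 fold changes of -2.43 to -1.94 over the 9 libraries left out and adjusted p up to 0.140. It was also past the threshold with DESeq2, and it missed it with limma-voom (adjusted p 0.0533).

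The other 9 genes did not pass the test in 8ND vs 0ND. The largest of these differences was in H2-T23, a non-classical heavy chain that presents signal peptides of other class I chains to natural killer cells. H2-T23 measured 19.1, 17.99, 40.1, 14.9 and 22.8 CPM in 8ND, against 14.8, 13.4, 20.7 and 11.2 CPM in 0ND, so that the groups overlapped. Its log2 fold change was 0.62 ± 0.34 (adjusted p 0.590). H2-D1, a classical heavy chain, measured 129.8, 98.1, 271, 203 and 275 CPM in 8ND, against 224, 268, 221 and 297 CPM in 0ND, with 8ND 1 and 8ND 2 below all others. Its log2 fold change was -0.37 ± 0.33 (adjusted p 0.798). The 10 genes had a median log2 fold change of -0.02, beside 0.00 for all genes tested.

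The light chain B2m measured 213, 216, 292, 150.3 and 241 CPM in 8ND, against 256, 227, 260.5 and 196 CPM in 0ND. With a log2 fold change of -0.08 ± 0.23 (adjusted p 0.959), the range of 0ND lay within that of 8ND. H2-K1, the other classical heavy chain, averaged 94.3 ± 12.4 CPM in 8ND and 84.3 ± 23.8 CPM in 0ND (SD, n = 5 and 4). Tap1 averaged 19.6 ± 7.55 and Tap2 19.2 ± 8.31 CPM in 8ND, against 19.3 ± 6.26 and 22.1 ± 3.85 CPM in 0ND. Tapbp, or tapasin, which bridges the heavy chain to TAP, averaged 109 ± 16.2 CPM in 8ND and 114 ± 8.51 CPM in 0ND. Nlrc5 and Psmb8 had log2 fold changes of 0.07 ± 0.44 and 0.14 ± 0.32.

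The same question was asked in dysplasia (8P vs 0P). None of the 10 genes passed the edgeR test, as with DESeq2 and limma-voom, and 1 had an unadjusted p under 0.05, where 0% of all genes passed and 10.1% had such a p. That gene was again H2-T-ps, at 0.958, 0.435, 0.65, 1.34 and 0.742 CPM in 8P, against 2.73, 2.08, 1.65 and 1.62 CPM in 0P. The groups did not overlap, as in 2.25% of all genes, with 4 to 19 counts per library in 8P and 12 to 31 in 0P. The log2 fold change was -1.25 ± 0.38 (p 0.0039, adjusted p 0.434 in edgeR). The comparisons in ND and in P share no library, though they may share mice, and each placed every library on 8 mg/kg FA below every library on 0 mg/kg FA for H2-T-ps. Its dose effect did not pass the test of a difference between P and ND (interaction 0.93 ± 0.55, adjusted p 0.570).

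H2-D1 measured 69.2, 158, 76.3, 213 and 139.7 CPM in 8P, against 261, 169.9, 165 and 196 CPM in 0P. 8P 1 and 8P 3 lay far below the rest, and the log2 fold change was -0.59 ± 0.33 (adjusted p 0.531). H2-K1 measured 63.0, 139, 56.9, 73.4 and 56.8 CPM in 8P, against 56.0, 62.8, 58.0 and 115 CPM in 0P, with 1 high library in each group. Its log2 fold change of 0.09 ± 0.27 became -0.23 without 8P 2. The median over the 10 genes was -0.08, beside 0.01 for all genes. B2m averaged 175 ± 45.8 CPM in 8P, against 147 ± 54.1 CPM in 0P, with a log2 fold change of 0.25 ± 0.23 (adjusted p 0.694). Psmb8 averaged 14.3 ± 7.88 CPM in 8P, against 18.2 ± 4.77 CPM in 0P, with a log2 fold change of -0.36 ± 0.32 (adjusted p 0.688). Tap1 and Tap2 had log2 fold changes of -0.10 ± 0.29 and -0.23 ± 0.29, and H2-T23 one of 0.45 ± 0.34. Nlrc5 averaged 16.5 ± 9.73 CPM in 8P and 15.7 ± 5.58 CPM in 0P, and Tapbp averaged 89.6 ± 14.8 CPM in 8P and 93.2 ± 13.4 CPM in 0P.

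**Figure D2:**
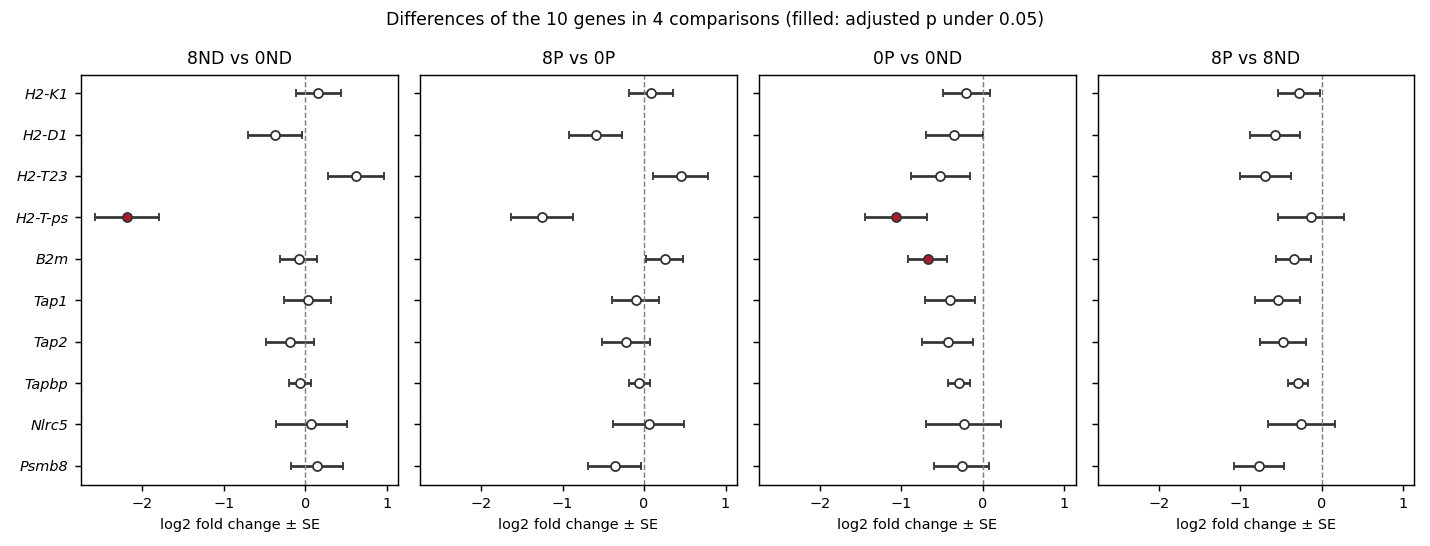
Log2 fold change ± SE (x axis) of the 10 genes (y axis) from the edgeR fit for the 2 comparisons of dose and then the 2 of dysplasia, with filled points for an adjusted p under 0.05. H2-T-ps was filled in 8ND vs 0ND and in 0P vs 0ND, B2m in 0P vs 0ND, and all 10 points lay below 0 in the panels that compare dysplasia with non-dysplastic epithelium.

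Dysplasia was then compared with non-dysplastic epithelium on chow without FA (0P vs 0ND). All 10 genes had lower fitted levels in 0P, with a median log2 fold change of -0.38 beside -0.03 for all genes, and 2 of them fell, which reads against 31.6% of all genes called in either direction and 15.7% called lower. An unadjusted p under 0.05 was found in 3 of the 10 and in 40.9% of all genes. B2m measured 212, 116, 91.4 and 168 CPM in 0P, against 256, 227, 260.5 and 196 CPM in 0ND. Only 0P 1 reached into the range of 0ND, and the log2 fold change was -0.68 ± 0.24 (adjusted p 0.0400). H2-T-ps, with the CPM given above, fell by 1.07 ± 0.38 on the log2 scale in 0P (adjusted p 0.0368). Psmb8, the immunoproteasome subunit that replaces Psmb5, measured 22.7, 14.6, 13.6 and 21.9 CPM in 0P, against 22.1, 24.7, 21.9 and 18.9 CPM in 0ND, with a log2 fold change of -0.26 ± 0.34 (adjusted p 0.610).

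Both calls in 0P vs 0ND depended on single libraries. B2m stayed past the threshold without 0P 1 and without 0ND 4, and missed it without each of 0P 2, 0P 3, 0P 4, 0ND 1, 0ND 2 and 0ND 3, where its log2 fold change ranged from -0.75 to -0.48. H2-T-ps missed it without each of 0P 2, 0P 3, 0P 4, 0ND 1, 0ND 2 and 0ND 4. Without 0P 1, the highest 0P library for Tapbp, Tapbp was called as well (-0.39, adjusted p 0.0484).

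On supplemented chow (8P vs 8ND), all 10 genes again had lower fitted levels in dysplasia, with a median log2 fold change of -0.41 beside 0.00 for all genes. None passed the edgeR test, while 3 had an unadjusted p under 0.05 (H2-T23, Tapbp and Psmb8), where 28.2% of all genes were called (13.9% higher, 14.3% lower) and 38.6% had such a p. DESeq2 also called 0 of the 10, and limma-voom called H2-T23 (-0.78, adjusted p 0.0471) and Psmb8 (-0.83, adjusted p 0.0327). Psmb8 measured 11.6, 28.3, 11.2, 11.2 and 9.28 CPM in 8P, against 24.1, 15.9, 43.3, 15.5 and 21.4 CPM in 8ND. Apart from 8P 2, every 8P library lay below every 8ND library, and the log2 fold change was -0.76 ± 0.31 (adjusted p 0.0710). With all libraries kept, 17.2% of all genes had no overlap between 8P and 8ND. H2-T23 measured 10.2, 27.3, 12.02, 12.5 and 10.02 CPM in 8P, beside the 14.9 to 40.1 CPM of 8ND given above, with the same library apart (-0.69 ± 0.31, adjusted p 0.112).

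Neither subunit of the TAP transporter passed the test in 8P vs 8ND. Tap1, one subunit, measured 13.3, 22.4, 13.2, 11.3 and 7.98 CPM in 8P, against 14.7, 19.7, 32.6, 14.7 and 16.5 CPM in 8ND, with a log2 fold change of -0.54 ± 0.27 (adjusted p 0.155) and again every 8P library but 8P 2 below all of 8ND. Tap2, the other subunit, measured 12.96, 24.4, 11.8, 11.3 and 10.02 CPM in 8P, against 20.2, 14.3, 31.2, 9.08 and 21.3 CPM in 8ND, with a log2 fold change of -0.47 ± 0.28 (adjusted p 0.228). For Tap2 the groups overlapped more, since 8ND 4 lay below every 8P library. Tapbp averaged 89.6 ± 14.8 CPM in 8P and 109 ± 16.2 CPM in 8ND, with a log2 fold change of -0.29 ± 0.12 (adjusted p 0.0886). Nlrc5, the transactivator of class I genes, measured 14.9, 30.6, 21.2, 9.85 and 5.94 CPM in 8P, against 10.4, 25.4, 33.0, 15.2 and 13.05 CPM in 8ND. Its groups overlapped (-0.25 ± 0.41, adjusted p 0.693). B2m measured 173, 244, 189, 144 and 126 CPM in 8P, against 213, 216, 292, 150.3 and 241 CPM in 8ND, and was at -0.35 ± 0.22 (adjusted p 0.254).

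The library 8P 2 decided the count of calls in 8P vs 8ND. Without it, 6 of the 10 genes were called, all lower in 8P, where 30.9% of all genes were called in either direction. These were H2-K1 (-0.59), H2-T23 (-1.05), Tap1 (-0.78), Tap2 (-0.75), Tapbp (-0.40) and Psmb8 (-1.16), with adjusted p of 0.0403, 0.00848, 0.0308, 0.0337, 0.0132 and 0.00228. For each of these 6 genes 8P 2 was the highest 8P library, so that leaving it out enlarges the difference. The calls without it are therefore no separate test of a lower level in 8P. Psmb8 was also called without 8ND 2 (-0.89) or without 8ND 4 (-0.88), and Tapbp without 8ND 4 (-0.36), each a low 8ND library for the gene.

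The comparisons 0P vs 0ND and 8P vs 8ND share no library, and all 10 genes were below 0 in both, as were 38.9% of all genes tested. The difference between the effects of dysplasia at the 2 doses, which is the same number as the interaction above, passed the test for 0 of the 10 genes in edgeR, 0 in DESeq2 and 0 in limma-voom, and 0 had an unadjusted p under 0.05, where 10.4% of all genes did. Its value was 0.33 ± 0.32 in B2m, -0.50 ± 0.46 in Psmb8 and -0.22 ± 0.46 in H2-D1.

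Markers of other cell types also differed between P and ND, where 31.6% of all genes were called in 0P and 28.2% in 8P. Of 12 B and plasma cell markers, 5 fell in 0P and 8 in 8P, and 0 rose. Their summed level was 1071 to 1520 CPM of total counts in 0P against 2771 to 5183 in 0ND, and 521 to 3415 in 8P against 4020 to 9970 in 8ND, with 8P 2 the highest of its group. All 7 smooth muscle markers fell in both comparisons, and summed to 369 to 737 CPM in 0P against 1038 to 2611 in 0ND, and 266 to 615 in 8P against 1040 to 1785 in 8ND. Of the 12 epithelial markers, whose sums stand above, 6 fell and 1 rose in 0P, and 9 fell and 1 rose in 8P. The 22 T and NK cell markers summed to 72.9 to 111 CPM in 0P, 58.1 to 135 in 0ND, 77.0 to 105.5 in 8P and 65.8 to 102 in 8ND, overlapping throughout, and the 16 macrophage and dendritic cell markers also overlapped, at 480 to 699 CPM in 0P, 371 to 944 in 0ND, 506 to 847 in 8P and 406 to 681 in 8ND. Of the 16 T and NK cell markers with enough counts to test, 3 rose and 2 fell in 0P and 3 rose and 1 fell in 8P, and of 15 macrophage and dendritic cell markers 4 rose in 0P and 1 in 8P. Of 5 neutrophil markers tested, 4 rose and 1 fell in both comparisons, with 8P 2 the highest of 8P at a summed 84.7 CPM. Of 10 endothelial markers, 1 rose and 2 fell in 0P and 3 fell in 8P, and of 10 fibroblast markers, 5 rose and 3 fell in 0P and 1 rose and 2 fell in 8P. The counts for T and NK cell, macrophage and dendritic cell and endothelial markers lay near or below the shares of all genes called. So did the fibroblast count in 8P. Such counts are not a result about those cells. No marker of any of these lists was at 0 in a whole group, and none passed the test in 8ND vs 0ND or 8P vs 0P. In 40 exact permutation tests on summed levels the lowest adjusted p was 0.104. The smallest p that 4 against 4 libraries allow is 0.0286, so few could pass, and the B and plasma cell, muscle and epithelial sums had the smallest possible p, with no overlap, in both comparisons of dysplasia. The part of other cell types in the lower class I levels was not tested.

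Other genes of peptide production were tested in the same comparisons, where 15.9% of all genes rose and 15.7% fell in 0P, and 13.9% rose and 14.3% fell in 8P. Psmb9 and Psmb10 are the other catalytic subunits of the immunoproteasome, and take the places of Psmb6 and Psmb7. Psmb10 averaged 11.9 ± 2.98 CPM in 0P and 19.4 ± 4.69 CPM in 0ND, and fell (-0.69 ± 0.25, adjusted p 0.0447), as it did in 8P, with 8.50 ± 2.93 CPM against 16.5 ± 4.37 CPM in 8ND (-0.97 ± 0.23, adjusted p 0.00375). Psmb9 did not pass the test, at -0.67 ± 0.40 in 0P vs 0ND and -0.81 ± 0.36 in 8P vs 8ND. Among 15 genes, the constitutive proteasome subunits and the activator Psme3, 11 rose and 0 fell in 0P, with a median of 0.60, while 2 rose and 0 fell in 8P, with a median of 0.16. Psmb5 rose in 0P (1.07 ± 0.38, adjusted p 0.0374), as did Psma7 (0.80) and Psme3 (0.66), and in 8P Psma3 (0.51) and Psme3 (0.38) passed. Psmb6 (0.77) and Psmb7 (0.46), named after their values were seen as the counterparts of Psmb9 and Psmb10, also rose in 0P.

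**Figure D3:**
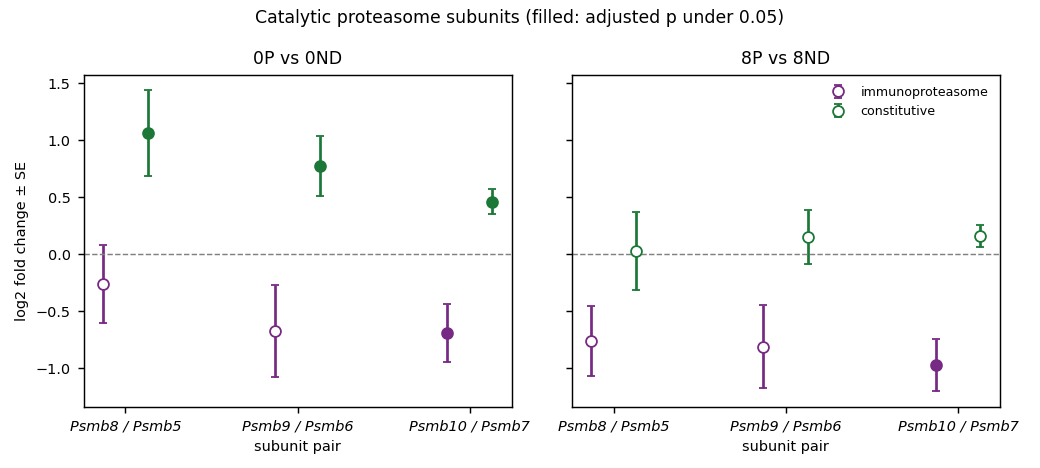
Log2 fold change ± SE (y axis) of each immunoproteasome subunit beside the constitutive subunit it replaces (x axis) in 0P vs 0ND and 8P vs 8ND, with filled points for an adjusted p under 0.05. Psmb8, Psmb9 and Psmb10 lay below 0 in both panels and Psmb5, Psmb6 and Psmb7 above 0, with Psmb5 at 1.07 in 0P vs 0ND and at 0.03 in 8P vs 8ND.

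The log2 ratio of Psmb8 to Psmb5 counts within a library put both subunits of this site side by side. It was 1.23, 1.06, 0.67 and 1.14 in 0P, against 2.97, 1.94, 2.60 and 2.08 in 0ND, with no overlap. The difference of -1.38 had the smallest p that an exact two-sided permutation test of 4 against 4 allows (p = 0.0286), and after adjustment over 12 such tests of ratios the p was 0.119. In 8P the ratio was 1.21, 1.62, 2.33, 0.88 and 1.31, against 2.00, 2.31, 2.50, 2.62 and 1.86 in 8ND, a difference of -0.79 (exact permutation p = 0.0397, adjusted p 0.119). Psmb5 had 9 to 160 counts per library.

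Of 12 other loading genes, Psmb9 and Psmb10 included, 1 rose and 3 fell in 0P, and 1 rose and 2 fell in 8P. With 31.6% and 28.2% of all genes called in these comparisons, such counts are near the background and are not a result about loading genes. Ifi30, a lysosomal thiol reductase, was lower in both (-0.74 ± 0.26 and -0.82 ± 0.24), Lnpep, an aminopeptidase of endosomes, was lower in 0P (-0.49 ± 0.13), Canx, the chaperone calnexin, was higher in 0P (0.66 ± 0.24), and Tpp2, a cytosolic peptidase, was higher in 8P (0.37 ± 0.12). The others did not pass, with Calr at 0.60 and 0.11, Pdia3 at 0.47 and 0.15, Tapbpl at -0.24 and -0.14, Erap1 at -0.24 and -0.22, Psme1 at 0.61 and 0.25, and Psme2 at 0.25 and -0.24, each in 0P vs 0ND and then 8P vs 8ND. No gene of the loading list passed in 8ND vs 0ND or 8P vs 0P, and 0 of its 12 genes had an unadjusted p under 0.05 in either of them.

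Of 22 regulators of the pathway, 4 rose and 4 fell in 0P, and 5 rose and 3 fell in 8P, beside the 31.6% and 28.2% of all genes called, so the counts set the list little apart. Irf1, an interferon-induced activator of class I promoters, averaged 46.7 ± 8.44 CPM in 0P and 70.6 ± 7.97 CPM in 0ND, and fell (-0.59 ± 0.20, adjusted p 0.0267). It averaged 40.1 ± 10.2 CPM in 8P and 64.1 ± 16.1 CPM in 8ND, and fell there too (-0.68 ± 0.18, adjusted p 0.00658). Irf2 (-0.79 and -0.36) and Irf8 (-0.69 and -0.97) were lower in both comparisons. Rfx5, a subunit of the factor that reads the X1 box, was higher in both (0.68 and 0.54), as were Nfyb, a subunit of NF-Y (0.87 and 0.85), Ifngr2, a chain of the interferon gamma receptor (0.42 and 0.35), and Ezh2, a histone methyltransferase that can silence class I genes (1.07 and 1.00). Ifngr1, the other receptor chain, named after its values were seen, went the other way. It measured 117, 76.5, 63.1 and 89.7 CPM in 0P, against 127, 171, 164 and 157 CPM in 0ND, with no overlap. Such a separation was common, as 32.3% of all genes showed it in 0P vs 0ND. In 8P it lay at 66.1 to 97.7 CPM, overlapping the 79.8 to 122 CPM of 8ND.

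The wider interferon-stimulated list was counted in the same way. Of 32 genes, 2 rose (Cxcl9 and Usp18) and 1 fell (Irf1) in 0P, and 3 rose (Usp18, Cxcl10 and Gbp6) and 3 fell (Irf1, Irf7 and Oas1a) in 8P, with medians of 0.00 and 0.10. These counts lay below the 31.6% and 28.2% of all genes called and are not a result about the list. Usp18, a brake on interferon signaling, was at 2.29 ± 0.48 and 1.67 ± 0.41. Of the 7 MHC class II genes, 0 passed in either comparison, while 0 had an unadjusted p under 0.05 in 0P vs 0ND and 1 in 8P vs 8ND. Among all genes, 40.9% and 38.6% had such a p. Their transactivator Ciita was at -0.71 ± 0.54 and -1.05 ± 0.49. Cd8a, a chain of the coreceptor that binds class I, fell in 0P (-1.23, adjusted p 0.0214) and was at -0.15 in 8P (adjusted p 0.791), and Cd3e, a chain of the T cell receptor complex, was at -0.72 and 0.34 with neither past the threshold. Other T and NK cell markers went both ways, with Zap70, a kinase of the T cell receptor, higher in both comparisons (1.49 and 1.16), Gzmb, the cytotoxic protease granzyme B, also higher (3.00 and 1.81), and Cd4 lower (-0.79 and -1.26). Of 8 ligands of natural killer cell receptors 3 had enough counts to test, and 0 of them passed, or had an unadjusted p under 0.05, in any of the 4 comparisons.

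Of 18 other class I genes tested, 1 rose and 5 fell in 0P, and 0 rose and 4 fell in 8P. Among all genes, 15.9% rose and 15.7% fell in 0P and 13.9% rose and 14.3% fell in 8P. H2-Q2 averaged 5.12 ± 2.88 CPM in 0P and 14.5 ± 3.15 CPM in 0ND (-1.52 ± 0.35, adjusted p 0.00253), and 2.73 ± 0.885 CPM in 8P against 10.1 ± 4.09 CPM in 8ND (-1.90 ± 0.33, adjusted p 0.000298). H2-Q1 fell by 1.75 and 1.74 on the log2 scale, H2-T24 by 0.93 and 1.09, and Fcgrt, the neonatal Fc receptor, which pairs with B2m, by 0.84 and 0.75. H2-T3, the thymus leukemia antigen of gut epithelium, fell by 2.52 in 0P and was at -2.31 in 8P (adjusted p 0.0504), where it measured 1.92, 0, 0.0812, 1.34 and 2.32 CPM, against 5.53, 3.57, 0.537, 9.08 and 10.99 CPM in 8ND. Mr1, which presents vitamin B metabolites, rose by 0.56 in 0P. H2-Q4 (-0.24 and -0.39), H2-Q7 (-0.87 and -0.72), H2-T10 (0.01 and -0.58), H2-T22 (0.56 and -0.27) and H2-M3 (-0.19 and -0.62) did not pass in either comparison of dysplasia. H2-Q1, H2-Q4 and H2-Q7 share stretches of 50 bases with H2-K1, so their values are uncertain in the same way. So do H2-Q10 with H2-K1 (5.18% of the stretches of H2-K1), H2-Q6 with H2-D1 (4.28%) and H2-Bl with H2-T23 (3.44%). Sharing is not given here for the rest of the list.

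In 3 of the 4 groups, single libraries led most of the genes. In 8P, library 2 was the highest for 8 of the 10 genes and library 5 the lowest for 7. In 0P, library 1 was the highest for 8 and library 3 the lowest for 7, and in 8ND, library 3 was the highest for 7. In 0ND no library was the highest for more than 3 genes or the lowest for more than 4. A mean of standardized log2 levels over 9 of the genes, leaving out H2-T-ps with its few counts, ran from -1.37 in 8P 5 to 1.54 in 8ND 3, with 8P 2 at 1.05. Among 11743 other named genes with a mean of at least 5 CPM, those whose log2 levels followed this mean most closely over the 18 libraries were Psmb9 (Pearson r = 0.91), Cebpa (0.90), Igkv5-43 (0.89), Slpi (0.88), Igkv12-44 (0.88) and H2-Q4 (0.88). The libraries include both tissues, so a difference between P and ND adds to each of these values. The B and plasma cell sum followed part of this order, with 8ND 3 the highest of 8ND and 8P 2 the highest of 8P. In 0P it did not, with 0P 1 at 1180 CPM of total counts, below 0P 4 at 1520 CPM. The macrophage and dendritic cell sums were highest of their groups in 8P 2 (847 CPM), 0P 1 (699 CPM) and 8ND 3 (681 CPM). So were the MHC class II sums, at 601, 579 and 859 CPM. The part of these cell types in the class I values was not tested.

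**Figure D4:**
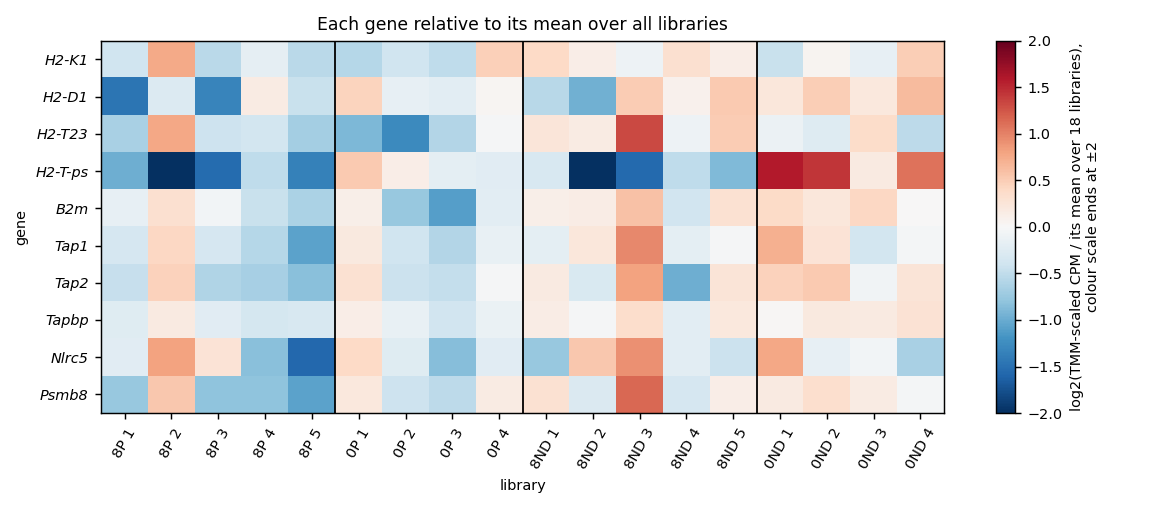
Log2 of the TMM-scaled CPM over its mean of 18 libraries (color, scale ending at 2 in each direction) for the 10 genes (rows) in each library (columns, grouped as 8P, 0P, 8ND and 0ND). 8ND 3 and 8P 2 were high for most genes and 8P 5 was low, H2-T-ps was high only in 0P 1, 0P 2 and the 0ND libraries, and H2-D1 was low in 8P 1, 8P 3 and 8ND 2.

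The ratio of the 2 classical heavy chains varied between libraries. The log2 ratio of H2-K1 to H2-D1 counts was -0.14, -0.18, -0.42, -1.54 and -1.30 in 8P, -2.22, -1.44, -1.51 and -0.76 in 0P, -0.26, -0.12, -1.81, -0.97 and -1.59 in 8ND, and -1.88, -1.63, -1.59 and -1.35 in 0ND. Counts of the 2 genes were thus close to equal in 8P 1, 8P 2, 8ND 1 and 8ND 2, while H2-D1 had over 2 times the counts of H2-K1 in all 0ND libraries. The differences between the groups did not pass an exact two-sided permutation test, with 0.66 in 8ND vs 0ND (p = 0.159), 0.77 in 8P vs 0P (p = 0.111), 0.13 in 0P vs 0ND (p = 0.714) and 0.23 in 8P vs 8ND (p = 0.611), and adjusted p of 0.267 to 0.714.

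The pseudogene was also set beside its close copy H2-T23 within each library. The log2 ratio of H2-T-ps to H2-T23 counts was -3.59, -5.37, -5.85, -3.36 and -4.41 in 8ND, against -1.38, -1.37, -3.25 and -1.46 in 0ND, with no overlap. The difference of -2.65 had the smallest p that the exact two-sided test of 5 against 4 allows (p = 0.0159, adjusted p 0.119). In 8P the ratio was -3.37, -5.80, -4.13, -3.19 and -3.67, against -1.64, -1.65, -2.65 and -3.26 in 0P, a difference of -1.73 (exact permutation p = 0.0317, adjusted p 0.119). H2-T22, another gene of the T region, measured 8.99, 11.1, 20.1, 3.47 and 7.70 CPM in 8ND, against 0.637, 1.76, 9.35 and 1.30 CPM in 0ND. It measured 5.81, 19.8, 6.01, 6.54 and 5.47 CPM in 8P, against 1.58, 0.77, 4.80 and 11.5 CPM in 0P. Among libraries on 0 mg/kg FA it was highest in 0P 3 and 0P 4 within 0P and in 0ND 3 within 0ND, which had the lowest ratios of H2-T-ps to H2-T23 in their groups.

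**Figure D5:**
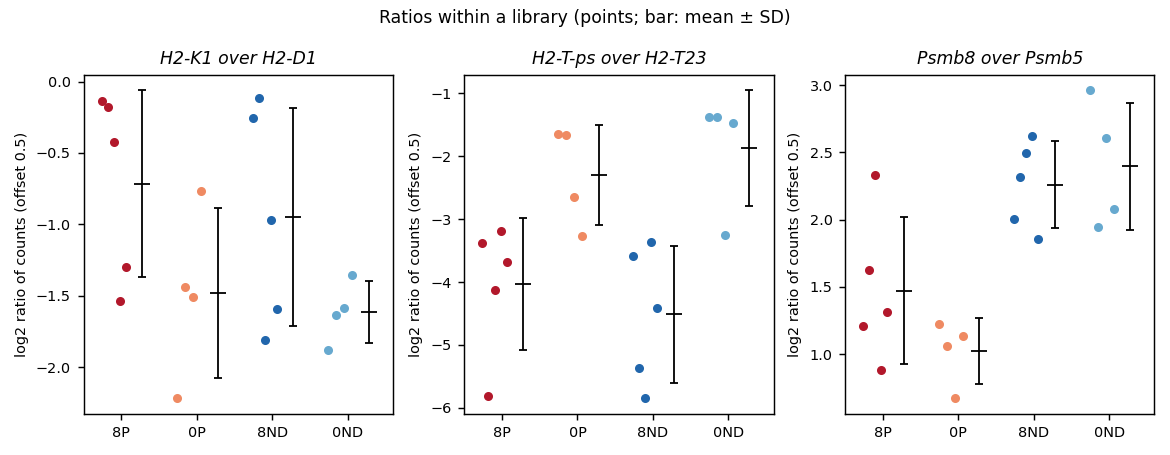
Log2 ratio of counts within a library (y axis, with 0.5 added to each count) for H2-K1 over H2-D1, H2-T-ps over H2-T23 and Psmb8 over Psmb5 in 8P, 0P, 8ND and 0ND (x axis), with 1 point per library and a bar for the mean ± SD. The H2-T-ps ratio lay from -5.85 to -3.36 in 8ND and from -3.25 to -1.37 in 0ND, and the Psmb8 ratio from 0.67 to 1.23 in 0P and from 1.94 to 2.97 in 0ND.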

How the data were processed

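A stranded low-input kit was used on 40 ng of RNA from each laser-microdissected, formalin-fixed sample. The authors aligned reads to mm10 with Bowtie and counted them per gene with HTSeq (versions and strand use not given in the sources used here), and deposited raw counts for each of the 18 libraries, with no molecular identifiers named, so counts include PCR copies. Reads with no unique alignment made up 40.1 to 62.2% per library. Lines that name no gene (no feature, 22.0 to 40.7%; ambiguous, 0.220 to 0.384%) stayed out of library sizes.

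Genes passed filterByExpr with a minimum count of 10, and edgeR 4.0.16 (R 4.3.3) fitted 1 mean per group to all 18 libraries with TMM scaling and robust quasi-likelihood dispersions. Benjamini-Hochberg adjustment ran over 20787 genes, with a threshold of 0.05. The SE was derived from the log2 fold change and its F statistic. DESeq2 1.42.0, one of the 2 tools of the study (the other was Cuffdiff), and limma-voom (limma 3.58.1), other scalings and filters, a fit on the compared groups only, a replicate block and fits with libraries left out were alternatives. The fit was tested on simulated data. Ratios used counts plus 0.5 and exact two-sided permutation tests (scipy 1.17.1), adjusted over 12, and summed marker levels, as CPM of total counts, were tested likewise over 40. Coordinates, exon lengths and shared 50-base stretches came from GENCODE M21. Groups and replicate numbers came from the labels, and no source says that the samples of a group were separate mice, so p-values measure the spread between these samples.

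The 10 genes and the other lists were chosen with earlier results of these data known. All 10 are named, with up to 3 genes per other list by smallest p, the 6 genes most like them over the libraries (unnamed gene models left out), and fixed names (Psmb9, Psmb10, Psme1, Psme2, Erap1, Tapbpl, Calr, Canx, Pdia3, Psmb5, Irf1, Rfx5, H2-Q4, H2-Q7, H2-T22, H2-T10, H2-M3, Cd8a, Cd3e and Ciita). A further gene with a fixed name is not reported here. Lists of natural killer ligands, neutrophil, endothelial and fibroblast markers were also counted.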

Additional observations from a re-analysis of the deposited data

Results flagged for a closer look

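Of 52 sets of libraries checked (10 genes and 3 ratios in 4 groups), 8 had a library whose gap to its nearest neighbor exceeded Dixon's limit, where chance gives about 1 in 20. The library 8P 2 stood above the other 8P libraries in 5 of them, at 139 CPM for H2-K1, 27.3 CPM for H2-T23, 24.4 CPM for Tap2, 115 CPM for Tapbp and 28.3 CPM for Psmb8. H2-K1 stood high at 115 CPM in 0P 4, and Tap1 at 32.6 CPM in 8ND 3. The log2 ratio of H2-T-ps to H2-T23 stood low at -3.25 in 0ND 3.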

How the results depend on the processing

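Of 458 values recomputed under other tools, scalings, filters or samples, 438 kept their direction and their side of the threshold, as did 524 of 594 with 1 library left out. In 8ND vs 0ND the count of genes called was 1 and became 0 with limma-voom, with a mean of at least 5 CPM (which drops H2-T-ps), in the fit of the compared groups only and without 8ND 1 and 8ND 2 together (H2-T-ps adjusted p 0.0533, 0.0733 and 0.318 in the others). In 0P vs 0ND it was 2 and became 0 with no filter on low counts (B2m adjusted p 0.166, H2-T-ps 0.0707) and 1 with a mean of at least 5 CPM. In 8P vs 8ND it was 0 and became 2 with limma-voom and 1 without 8ND 1 and 8ND 2 (H2-D1, for which these were the lowest 8ND libraries, so that leaving them out enlarges its difference). With 1 library left out it ranged from 0 to 1 in 8ND vs 0ND, 0 to 3 in 0P vs 0ND and 0 to 6 in 8P vs 8ND, and stayed at 0 in 8P vs 0P and for the interaction. The count over all genes in 8ND vs 0ND was 10 in edgeR, 316 in DESeq2 and 4 in limma-voom, and in 8P vs 0P it was 0, 20 and 0. The cause of these changes was not tested.

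Values that changed sign were small. Nlrc5 in 8P vs 0P became -0.14 with limma-voom and Tapbp became 0.00182 without TMM. The difference of the T and NK marker sum in 8P vs 0P became -3.64 CPM and that of the interferon list in 8P vs 8ND became -4.52 CPM on TMM-scaled CPM. With 1 library left out, ranges that crossed 0 were, in 8ND vs 0ND, -0.20 to 0.031 for B2m, -0.23 to 0.26 for Tap1, -0.13 to 0.00363 for Tapbp, -0.20 to 0.43 for Nlrc5, -0.18 to 0.27 for Psmb8 and -0.29 to 0.049 for the log2 ratio of Psmb8 to Psmb5. In 8P vs 0P they were -0.23 to 0.40 for H2-K1, -0.35 to 0.061 for Tap1, -0.16 to 0.037 for Tapbp and -0.28 to 0.31 for Nlrc5. In 0P vs 0ND they were -0.48 to 0.12 for Nlrc5 and -0.11 to 0.38 for the log2 ratio of H2-K1 to H2-D1, and in 8P vs 8ND they were -0.38 to 0.11 for H2-T-ps and -0.59 to 0.025 for Nlrc5.

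Same-numbered P and ND libraries did not deviate together in every pair (correlations from -0.08 to 0.27 over 9 pairs, 4 of them over 0.1, and 4 of 9 ND libraries correlated best with their own number), so the numbers were not used as pairs. The median correlation was 0.05 for same-numbered pairs and -0.03 for the 32 other pairs. This check cannot decide whether they share mice, so the H2-T-ps separations by dose in ND and in P may rest on the same mice. With each number within a dose as a block, the count of genes called was 2 in 0P vs 0ND, 0 in 8P vs 8ND and 0 for the interaction, each as without it. For the comparisons of dose the block was the number alone, which joins libraries of mice on different chow. Their counts, 1 in 8ND vs 0ND and 0 in 8P vs 0P, also stayed the same. These 2 counts cannot show whether P and ND libraries are paired.

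Counts of 4 to 89 per library limit H2-T-ps, and shared reads limit all class I genes. The shallowest library, 8ND 4, held 3500947 counts.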
